A study of Mus musculus with 24 samples.

Results

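The 10 genes described here encode proteins of the muscle Z-disc and its LIM-domain partners, and they are 10 of the 24043 gene symbols in the deposited expression table. The rule that picks them is a list of names and uses no measured value, but the list was drawn up with earlier results of these data known: Des (desmin), Ldb3, Pdlim3 and Pdlim5 (PDZ-LIM proteins), Csrp3 (muscle LIM protein), Fhl1 and Fhl3 (four-and-a-half LIM proteins), Ankrd2 (a muscle ankyrin repeat protein), and Myoz1 and Myoz2 (calsarcins). Their RNA was sequenced in C2C12, an established mouse myoblast line that fuses into myotubes when serum is lowered. Cells were kept in growth medium (DMEM with 10% fetal bovine serum) or in differentiation medium (DMEM with 2% horse serum and an insulin, transferrin and selenium supplement), each at 21% or 2% oxygen. Each of the 4 groups had 2 libraries, lettered A and B. The number of days in differentiation medium is not given in the labels, and the cells carried no named transgene or deletion. All 8 libraries come from 1 cell line, so they say nothing of fibers in an animal.

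The Z-disc is the protein lattice at the border of each sarcomere, where actin filaments of neighbouring sarcomeres are cross-linked by alpha-actinin. Desmin, the muscle intermediate filament, ties Z-discs to each other and to the membrane. PDZ-LIM proteins bind alpha-actinin through the PDZ domain and other partners through LIM domains, which are zinc-binding modules for protein contact. Calsarcins bind alpha-actinin and calcineurin, and several LIM and ankyrin repeat proteins are found both at the Z-disc and in the nucleus, where they are studied as mechanical signalling proteins.

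Reference sequence upstream of 5 of the genes is shown because these genes span the patterns seen below: a large gain in differentiation medium at 21% oxygen (Csrp3, Pdlim3, Myoz2), a modest one from a high base (Des), and a loss (Fhl3). Each is the 250 bases before an annotated start site in RefSeq (GRCm38.p6), 5′ to 3′ on the strand of the gene. Capitals mark E-boxes (CANNTG, bound by myogenic factors such as MyoD), MEF2 boxes, SRF CArG boxes, MCAT elements (CATTCC or its reverse complement GGAATG) and the TATA words TATAAA and TATATA, searched on both strands. CAGCTG is 1 kind of E-box, and in Myoz2 both TATATA matches lie inside the MEF2 box.
Des, chr1:75360042-75360291, plus strand: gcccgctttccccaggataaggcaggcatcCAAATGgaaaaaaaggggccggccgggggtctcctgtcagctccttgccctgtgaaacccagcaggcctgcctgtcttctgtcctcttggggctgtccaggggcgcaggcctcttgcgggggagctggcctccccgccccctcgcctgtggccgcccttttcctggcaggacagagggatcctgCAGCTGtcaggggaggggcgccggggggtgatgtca
Csrp3, chr7:48848052-48848301, minus strand: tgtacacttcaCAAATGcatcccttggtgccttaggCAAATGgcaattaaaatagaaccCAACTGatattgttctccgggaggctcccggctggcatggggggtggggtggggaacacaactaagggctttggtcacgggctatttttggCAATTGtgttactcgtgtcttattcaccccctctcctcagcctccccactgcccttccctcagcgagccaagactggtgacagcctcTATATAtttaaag
Pdlim3, chr8:45885237-45885486, plus strand: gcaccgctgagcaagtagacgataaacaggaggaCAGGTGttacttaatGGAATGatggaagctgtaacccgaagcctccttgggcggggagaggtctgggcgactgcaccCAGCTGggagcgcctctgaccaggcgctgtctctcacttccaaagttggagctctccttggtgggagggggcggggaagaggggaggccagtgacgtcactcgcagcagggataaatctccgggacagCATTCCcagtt
Myoz2, chr3:123034988-123035237, minus strand: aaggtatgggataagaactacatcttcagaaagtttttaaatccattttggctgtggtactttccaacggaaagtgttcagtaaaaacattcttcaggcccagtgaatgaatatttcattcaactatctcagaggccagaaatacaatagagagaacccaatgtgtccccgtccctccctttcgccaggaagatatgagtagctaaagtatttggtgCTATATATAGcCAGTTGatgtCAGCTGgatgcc
Fhl3, chr4:124700449-124700698, plus strand: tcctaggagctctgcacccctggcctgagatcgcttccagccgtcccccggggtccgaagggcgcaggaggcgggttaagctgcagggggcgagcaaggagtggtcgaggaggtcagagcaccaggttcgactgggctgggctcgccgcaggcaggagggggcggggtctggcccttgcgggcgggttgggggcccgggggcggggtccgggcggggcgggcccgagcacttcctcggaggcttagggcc

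The Myoz2 window held a MEF2 box, CTATATATAG, at positions -33 to -24 from the start site, and the E-box CAGCTG at -12. A MEF2 box was found in 2.92% of all 32851 windows of this length in the RefSeq promoter table. CAGCTG was also found in Des at -36 and in Pdlim3 at -139, against 13.0% of all windows. The Csrp3 window printed, 1 of 2 for this gene, held 4 E-boxes and a TATATA, and the other held 4 E-boxes and no TATATA. Any E-box was present in 66.2% of all windows, so an E-box match is common. Fhl3, with 74.0% G and C, held none of the searched words. Outside the sequences printed, both Ldb3 windows held the CArG box CCATTTATGG and 1 of the Fhl1 windows held CCTAAAATGG, against 1.47% of all windows. The core words of hypoxia-inducible factor (HIF) sites, ACGTG and GCGTG, were also searched, and none was in the sequences printed. ACGTG was in 1 Pdlim5 and 1 Ldb3 window, against 16.6% of all windows. GCGTG was in the same Pdlim5 window and both Ldb3 windows, against 28.2%. RefSeq windows were found for 9 of the 10 genes, and Myoz1 had no entry. These matches describe letters in a window and do not show that a factor binds there.

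Levels are in FPKM, which divides the fragments of a gene by its length and by the library's mapped fragments, so they can be compared between genes per unit of length. Each library had 14917 to 15672 genes above 0 and summed to 480020 to 534170 FPKM, and the relative depth of the libraries ran from 0.633 to 1, both ends in hypoxic differentiation medium. In that group 613 of the 12389 tested genes differed over 2-fold between replicates A and B, against 56 to 71 in the other groups, and the summed level of 8 cell cycle genes was 33.4 FPKM in A and 196 in B. The summed level of 8 skeletal muscle marker genes was 137 to 178 FPKM in growth medium at 21% oxygen, 11394 to 11441 in differentiation medium at 21%, and 23.2 to 30.0 in the groups at 2%. In bulk RNA, fewer cells of a type and less RNA per cell cannot be told apart. Differences below were fitted with limma on log2(FPKM + 1) over all 8 libraries and adjusted by Benjamini-Hochberg over all tested genes, and a gene is said to rise or fall where the adjusted p was under 0.05. Adding 1 makes the fitted change of a weakly expressed gene smaller than the ratio of its FPKM values. The design text calls A and B biological replicates but ties neither letter to a culture or day, so p-values measure the spread between these libraries.

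The first comparison set differentiation against growth medium at 21% oxygen. It called 9 of the 10 genes higher and 1, Fhl3, lower, where 66.5% of all tested genes were called, 25.5% higher and 41.0% lower. The libraries of the compared groups did not overlap for 10 of the 10 genes, against 87.0% of all tested genes. The median log2 change of the 10 genes was 2.80, against -0.20 for all tested genes. It was 4.01 with Myoz1, listed at 0 in growth medium, placed at 6.38, the log2 of its lower bound as a ratio. That value lacks the added 1, so it is not on the scale of the other changes or of the -0.20. Csrp3, Ankrd2, Myoz1 and Myoz2 passed the low-value filter only through differentiation medium at 21% oxygen, so a difference from the other groups was built into their being tested, and the count is a description. Median-of-ratios scaling moved the median of all genes from -0.20 to 0.03 and the shares to 35.0% higher and 30.3% lower, so a change of the size of that shift should be read against it. The summed level of the 10 genes was 317 ± 33.4 FPKM in growth medium and 1425 ± 63.3 in differentiation medium (SD, n = 2).

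**Figure D1:**
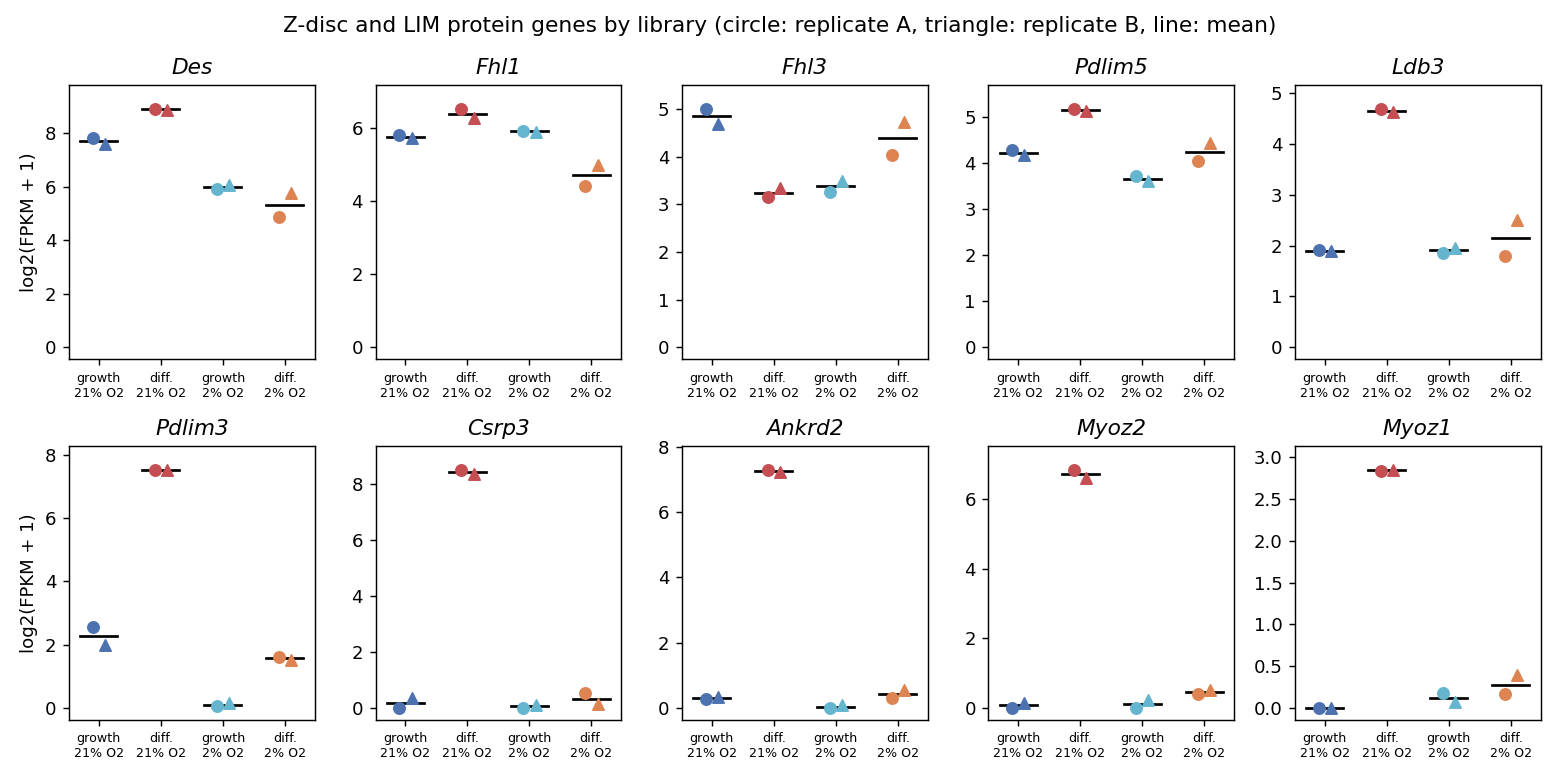
Level of each gene as log2(FPKM + 1) in the 8 libraries, with 1 panel per gene and its own vertical scale. Circles are replicate A, triangles replicate B and lines the group mean. Csrp3, Ankrd2, Myoz1 and Myoz2 stand above 1 on this scale in differentiation medium at 21% oxygen and nowhere else, while Fhl3 is lowest there or in growth medium at 2% oxygen.

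Desmin was the most abundant of the 10 transcripts in every library. Des measured 228 and 194 FPKM (replicates A and B) in growth medium at 21% oxygen, 484 and 474 in differentiation medium at 21%, 60.3 and 66.4 in growth medium at 2% and 28.6 and 53.1 in differentiation medium at 2%. The 4 groups did not overlap. Differentiation medium at 21% oxygen was highest, followed by growth medium at 21% and growth medium at 2%. Des rose with differentiation medium at 21% oxygen by a log2 change of 1.19 ± 0.26 (SE, adjusted p 0.00605), a 2.27-fold difference of means. Its share of the summed level of the 10 genes was 66.5% ± 0.592 in growth medium and 33.6% ± 0.969 in differentiation medium (SD, n = 2), since other members gained more.

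At 2% oxygen desmin was low in both media. In growth medium it was 3.33-fold lower than at 21% (log2 change -1.72 ± 0.26, adjusted p 0.00258), and in differentiation medium 11.7-fold lower (-3.58 ± 0.26, adjusted p 3.69e-05). Differentiation medium at 2% oxygen gave a log2 change of -0.68 ± 0.26, which missed the threshold (adjusted p 0.0743). The 2 hypoxic differentiation libraries gave different sizes: -1.12 without replicate B (adjusted p 0.00131) and -0.25 without replicate A (adjusted p 0.124). Des met the threshold in 3 of 14 alternative settings, that one without replicate B and both other scalings of the libraries (by median of ratios, -0.73 at an adjusted p of 0.0351, and by upper quartile, -0.78 at 0.0279). In the remaining settings adjusted p reached 0.252.

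The 3 PDZ-LIM genes rose at 21% oxygen by very different amounts. Pdlim3 encodes the actinin-associated LIM protein ALP. It measured 4.88 and 2.97 FPKM in growth medium at 21% oxygen, 183 and 184 in differentiation medium at 21%, 0.0352 and 0.112 in growth medium at 2% and 2.07 and 1.88 in differentiation medium at 2%. No groups overlapped, and growth medium at 2% oxygen was the lowest. The log2 change with differentiation medium was 5.26 ± 0.18 at 21% (adjusted p 1.78e-06) and 1.47 ± 0.18 at 2% (adjusted p 0.00161). As ratios of means the rises were closer, at 46.8-fold and 26.9-fold. Adding 1 shrinks the change from a mean of 0.0736 FPKM in hypoxic growth medium. After the rise at 2% oxygen Pdlim3 was still under its level in growth medium at 21%, which was 1.90-fold higher by fragment counts (exact 95% interval 1.49 to 2.44, counting error only).

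Ldb3 encodes ZASP, also called Cypher, a PDZ-LIM protein of the striated muscle Z-disc. It measured 2.77 and 2.69 FPKM in growth medium at 21% oxygen, 24.9 and 23.6 in differentiation medium at 21%, 2.64 and 2.85 in growth medium at 2% and 2.45 and 4.66 in differentiation medium at 2%. The 3 groups other than differentiation medium at 21% overlapped one another. Ldb3 rose at 21% oxygen (2.76 ± 0.22, adjusted p 5.69e-05). At 2% oxygen its log2 change was 0.24 ± 0.22 (adjusted p 0.422), from a fitted -0.12 with replicate A of the hypoxic differentiation group alone to 0.60 with replicate B alone, the latter past the threshold (adjusted p 0.00385).

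Pdlim5 encodes ENH, a PDZ-LIM protein that is also made outside muscle. It measured 18.3 and 17.0 FPKM in growth medium at 21% oxygen, 35.2 and 34.0 in differentiation medium at 21%, 12.1 and 11.1 in growth medium at 2% and 15.6 and 20.8 in differentiation medium at 2%. Differentiation medium at 2% overlapped growth medium at 21%, and the other groups stood apart. Pdlim5 rose with differentiation medium both at 21% (0.93 ± 0.14, adjusted p 0.000947) and at 2% oxygen (0.59 ± 0.14, adjusted p 0.0148). The call for Pdlim5 at 2% was lost in a fit of the compared libraries alone (adjusted p 0.0818) and without replicate A or replicate B of hypoxic growth medium (adjusted p 0.0580 and 0.0923).

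The order of the PDZ-LIM transcripts was therefore not fixed. The FPKM ratio of Pdlim3 to Pdlim5 was 0.266 and 0.175 in growth medium at 21% oxygen and 5.20 and 5.42 in differentiation medium at 21%. At 2% oxygen it was 0.00291 and 0.0101 in growth medium and 0.133 and 0.0908 in differentiation medium. Pdlim5 was the higher of the pair in every library except both of differentiation medium at 21%.

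Among the LIM-only genes, Csrp3 encodes muscle LIM protein, a cofactor and Z-disc protein of striated muscle. It was listed at 0 and 0.277 FPKM in growth medium at 21% oxygen, 365 and 327 in differentiation medium at 21%, 0 and 0.0742 in growth medium at 2% and 0.436 and 0.0985 in differentiation medium at 2%. Only differentiation medium at 21% stood high, and there Csrp3 was second to desmin among the 10 genes. The log2 change at 21% was 8.26 ± 0.18 (adjusted p 2.90e-07), the largest of the 10. At 2% oxygen it was 0.28 ± 0.18 (adjusted p 0.254).

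Fhl1 and Fhl3 belong to the same family of four-and-a-half LIM proteins, which act as cofactors and scaffolds, and they moved in opposite directions. Fhl1 measured 55.1 and 51.3 FPKM in growth medium at 21% oxygen, 90.8 and 75.6 in differentiation medium at 21%, 59.8 and 57.7 in growth medium at 2% and 20.4 and 30.5 in differentiation medium at 2%. The groups did not overlap, with differentiation medium highest at 21% and lowest at 2%. The log2 change with differentiation medium was 0.63 ± 0.18 at 21% (adjusted p 0.0200) and -1.20 ± 0.18 at 2% (adjusted p 0.00319). The rise at 21% was lost without replicate A of normoxic differentiation medium (adjusted p 0.126), without replicate A of normoxic growth medium (0.0618) and without its replicate B (0.0934).

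Fhl3 measured 31.3 and 24.8 FPKM in growth medium at 21% oxygen, 7.93 and 9.16 in differentiation medium at 21%, 8.67 and 10.3 in growth medium at 2% and 15.4 and 25.8 in differentiation medium at 2%. Growth medium at 21% and differentiation medium at 2% were the high pair and overlapped, and the remaining groups were the low pair and overlapped as well. Fhl3 fell with differentiation medium at 21% (-1.60 ± 0.24, adjusted p 0.00107) and rose at 2% (1.00 ± 0.24, adjusted p 0.0170). The rise of Fhl3 at 2% was lost in a fit of the compared libraries alone (adjusted p 0.0789) and without replicate A or B of hypoxic growth medium (adjusted p 0.0989 and 0.0594). The FPKM ratio of Fhl1 to Fhl3 was 1.76 and 2.07 in growth medium at 21%, 11.5 and 8.25 in differentiation medium at 21%, 6.90 and 5.58 in growth medium at 2%, and 1.32 and 1.18 in differentiation medium at 2%.

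Ankrd2 encodes a stretch-responsive ankyrin repeat protein found at the sarcomere and in the nucleus. It measured 0.208 and 0.268 FPKM in growth medium at 21% oxygen, 158 and 151 in differentiation medium at 21%, 0 and 0.0573 in growth medium at 2% and 0.241 and 0.457 in differentiation medium at 2%. Only differentiation medium at 21% stood high, with a log2 change of 6.97 ± 0.11 (adjusted p 1.82e-07). At 2% oxygen the change of 0.39 ± 0.11 passed narrowly (adjusted p 0.0354) and was lost in 10 of 14 alternative settings, among them the fit with no low-value filter (adjusted p 0.0600).

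The calsarcin genes were under 0.5 FPKM in 3 of the 4 groups. Myoz2, calsarcin-1 of heart and slow muscle, measured 0 and 0.101 FPKM in growth medium at 21% oxygen, 115 and 96.3 in differentiation medium at 21%, 0 and 0.162 in growth medium at 2% and 0.318 and 0.431 in differentiation medium at 2%. Myoz1, calsarcin-2 of fast muscle, was listed at 0 in both growth medium libraries at 21%, at 6.15 and 6.24 in differentiation medium at 21%, 0.133 and 0.0471 in growth medium at 2% and 0.119 and 0.313 in differentiation medium at 2%. The slow-muscle calsarcin was the more abundant in normoxic differentiation medium, with an FPKM ratio of Myoz2 to Myoz1 of 18.7 and 15.4. Fitted log2 changes at 21% were 6.66 ± 0.14 for Myoz2 (adjusted p 2.30e-07) and 2.85 ± 0.11 for Myoz1 (adjusted p 2.56e-06). At 2% oxygen neither passed the threshold (0.35 ± 0.14, adjusted p 0.0823 for Myoz2; 0.15 ± 0.11, adjusted p 0.293 for Myoz1).

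The low levels of 5 genes could be read as whole sequenced fragments. For Pdlim3, Csrp3, Ankrd2, Myoz1 and Myoz2, every value above 0 and under 3 FPKM, 22 in all, was a whole multiple of the gene's level per fragment once relative depth was allowed for (within 0.05 of a fragment). A level per fragment was accepted only where the values of few fragments met this tolerance, so the match is partly built in. Ldb3 was also tried and gave no shared level per fragment. The intervals below cover counting error only, with no spread between cultures. In growth medium at 21% oxygen the pooled libraries held an estimated 193 fragments of Pdlim3, 8 of Ankrd2, 4 of Csrp3, 2 of Myoz2 and 0 of Myoz1. In growth medium at 2% they held 4 each of Pdlim3 and Myoz1, 3 of Myoz2, and 1 each of Csrp3 and Ankrd2. In differentiation medium at 2% they held 104 of Pdlim3, 13 of Myoz2, 11 of Ankrd2, and 8 each of Csrp3 and Myoz1. By this count differentiation medium at 21% oxygen exceeded growth medium 2197-fold for Csrp3 (95% Poisson interval 858 to 8062), 1832-fold for Myoz2 (507 to 15123), 637-fold for Ankrd2 (323 to 1475) and 48.3-fold for Pdlim3 (42.0 to 55.9). Myoz1 was at least 83.2-fold higher, against a floor of 3 fragments over the group, which corresponds to 0.0745 FPKM.

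Fragment counts gave wide intervals at 2% oxygen, which overlap between most of the genes, and differences between genes were not tested. The ratio of differentiation to growth medium at 2%, adjusted for depth, was 27.6 for Pdlim3 (exact 95% interval 10.4 to 103), 11.7 for Ankrd2 (1.69 to 502), 8.48 for Csrp3 (1.14 to 376) and 4.59 for Myoz2 (1.26 to 25.1). For Myoz1 it was 2.12 (0.568 to 9.62), an interval that holds 1. For Csrp3, 7 of the 8 hypoxic differentiation fragments were in replicate A. Differentiation medium at 21% still exceeded that at 2% by 1125-fold for Csrp3, 475-fold for Ankrd2, 289-fold for Myoz2, 91.9-fold for Pdlim3 and 32.0-fold for Myoz1.

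**Figure D2:**
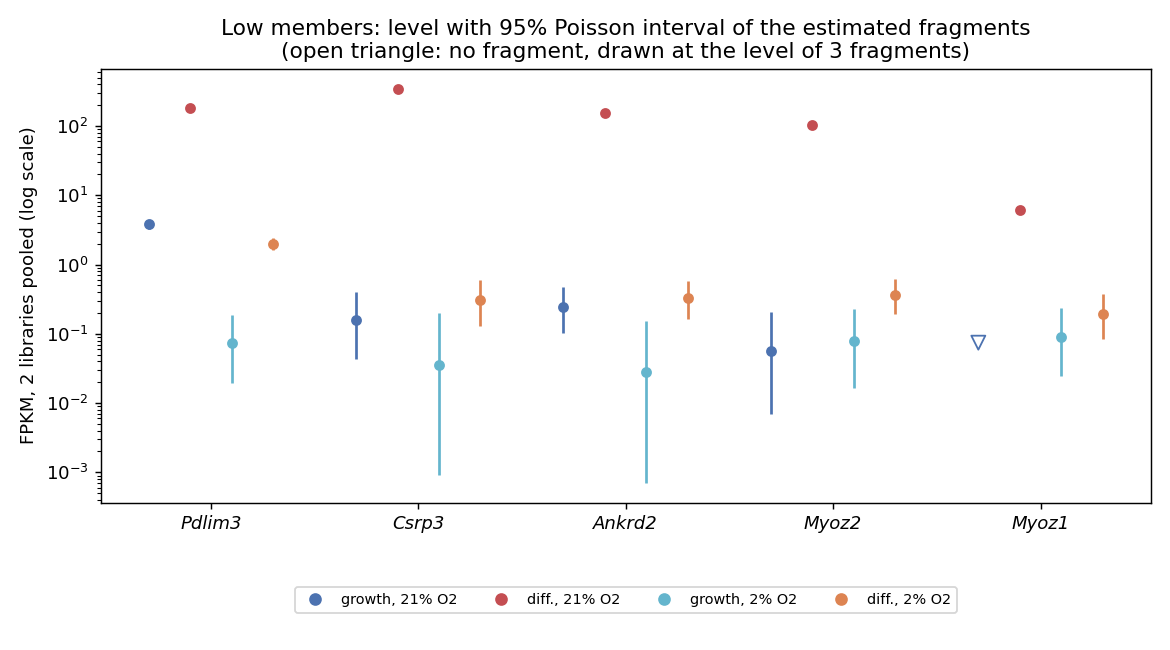
Pooled level (FPKM, log axis) of the 5 genes whose low values resolve into whole fragments, by group, with 95% Poisson intervals of the fragment count. The open triangle marks Myoz1 in growth medium at 21% oxygen, where no fragment was found, at the level of 3 fragments. Pdlim3 alone lies above 1 FPKM in growth medium at 21% and in differentiation medium at 2% oxygen.

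The second comparison, differentiation medium at 2% oxygen, called 4 of the 10 genes higher (Pdlim3, Fhl3, Pdlim5 and Ankrd2) and 1 lower (Fhl1), where 40.9% of all tested genes were called, 23.3% higher and 17.6% lower. The groups did not overlap for 8 of the 10 genes, all but Ldb3 and Myoz1, against 70.3% of all tested genes. The median log2 change of the 10 genes was 0.31, against 0.07 for all tested genes. The number called fell from 5 to 2 (Pdlim3 and Fhl1) with only the libraries compared, and likewise to 2 without replicate A or without replicate B of hypoxic growth medium. The share of all tested genes called was lower at these settings too, at 23.1%, 21.6% and 20.2%, so 2 of 10 is near that background. The summed level was 146 ± 3.67 FPKM in growth medium and 112 ± 36.9 in differentiation medium at 2% (SD, n = 2), a difference within the spread of the latter group.

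The replicates of hypoxic differentiation medium did not stand at the same level. Replicate B exceeded replicate A for 8 of the 10 genes, all but Pdlim3 and Csrp3, and for 63.2% of all tested genes. Des was 28.6 in A and 53.1 in B, and Fhl3 15.4 and 25.8 FPKM. The cell cycle genes given above also differed between these libraries. Of the smooth muscle markers, Acta2, which myoblasts also use, measured 71.1 FPKM in A and 252 in B, while Smtn measured 58.3 and 63.7. The summed fibroblast markers were higher in A, at 1183 FPKM against 773 in B, mostly through Col3a1 (949 and 540). Dcn and Pdgfra were also higher in A, while Col1a1, Col1a2 and Lum were slightly higher in B. The part of these genes in the difference was not tested. Each direction with differentiation medium at 2% was the same from either library, except for Ldb3.

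**Figure D3:**
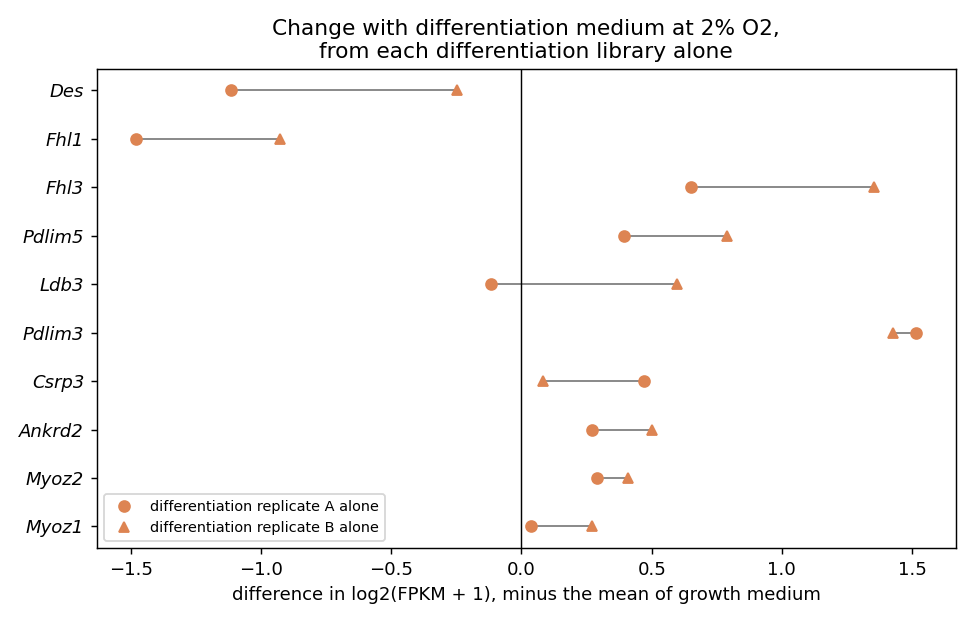
Difference in log2(FPKM + 1) between each hypoxic differentiation library and the mean of hypoxic growth medium, for replicate A (circle) and replicate B (triangle). Des, for example, lies at -1.12 from A and -0.25 from B, and Ldb3 crosses 0.

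The third comparison set 2% against 21% oxygen in growth medium. It called 4 of the 10 genes lower and 0 higher by limma, where 41.4% of all tested genes were called, 28.0% lower and 13.5% higher, or 19.8% and 19.2% after upper-quartile scaling. At an unadjusted p under 0.05 the number higher was also 0. The groups did not overlap for 7 of the 10 genes, all but Ldb3, Csrp3 and Myoz2, against 77.2% of all tested genes. Pdlim3 fell most (log2 change -2.17 ± 0.18, adjusted p 0.000281), and its fragment counts gave a 52.4-fold higher level at 21% (exact 95% interval 20.1 to 194). Des (given above), Fhl3 (-1.46 ± 0.24, adjusted p 0.00362) and Pdlim5 (-0.56 ± 0.14, adjusted p 0.0164) also fell. The Pdlim5 call was lost without replicate A or B of hypoxic growth medium (adjusted p 0.0604 and 0.0971) and without replicate A of normoxic growth medium (0.0863). Fhl1 (0.14 ± 0.18, adjusted p 0.573) and Ldb3 (0.01 ± 0.22, adjusted p 0.991) did not pass the threshold. The median of the 10 genes was -0.20, against -0.14 for all tested genes.

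The fourth comparison set 2% against 21% oxygen in differentiation medium. It called 9 of the 10 genes lower and Fhl3 higher (1.14 ± 0.24, adjusted p 0.00522), where 65.2% of all tested genes were called, 27.7% lower and 37.5% higher, or 35.0% and 30.3% after median-of-ratios scaling. The groups did not overlap for 10 of the 10 genes, against 83.1% of all tested genes. The median log2 change was -3.08, against 0.15 for all tested genes. This comparison and the first share the normoxic differentiation libraries, so the near mirror image of the values is partly built in. Csrp3, Ankrd2, Myoz1 and Myoz2 were tested only through their level in differentiation medium at 21% oxygen. Their falls were therefore built in, and the count and median are descriptions. The falls ran from -0.90 ± 0.14 for Pdlim5 (adjusted p 0.00111) and -1.69 ± 0.18 for Fhl1 (adjusted p 0.000233) to -8.11 ± 0.18 for Csrp3 (adjusted p 2.58e-07). Between them lay Ldb3 (-2.51), Myoz1 (-2.57), Des (-3.58), Pdlim3 (-5.95), Myoz2 (-6.27) and Ankrd2 (-6.85). All 10 calls held when each library was left out in turn.

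The interaction, the change with medium at 2% oxygen minus that at 21%, tests whether oxygen altered the response. It was negative past the threshold for 8 genes and positive for Fhl3, where 54.1% of all tested genes were called, 18.7% negative and 35.4% positive, or 26.6% and 23.9% after median-of-ratios scaling. The 8 include Csrp3, Ankrd2, Myoz1 and Myoz2, tested only through differentiation medium at 21% oxygen, so the count is a description. The median was -2.61, against 0.27 for all tested genes, or -0.01 for them once scaled by median of ratios. The fitted Myoz1 value that enters this median depends on the added 1, since Myoz1 was listed at 0 in growth medium at 21%. Csrp3 had the largest interaction (-7.98 ± 0.25, adjusted p 2.91e-06). The Pdlim3 interaction of -3.78 ran from -4.07 to -1.94 over the alternative settings, and part of its size comes from the added 1. Its fragment ratios of differentiation to growth medium had overlapping intervals, 48.3-fold at 21% (42.0 to 55.9) and 27.6-fold at 2% (10.4 to 103). Fhl3 had 2.60 ± 0.34 (adjusted p 0.000962), Fhl1 -1.83 ± 0.26 (adjusted p 0.00135) and Des -1.87 ± 0.36 (adjusted p 0.00521). Pdlim5 did not pass (-0.34 ± 0.19, adjusted p 0.174, 95% interval -0.80 to 0.12), and it did pass after both alternative scalings and without replicate B of hypoxic differentiation medium.

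**Figure D4:**
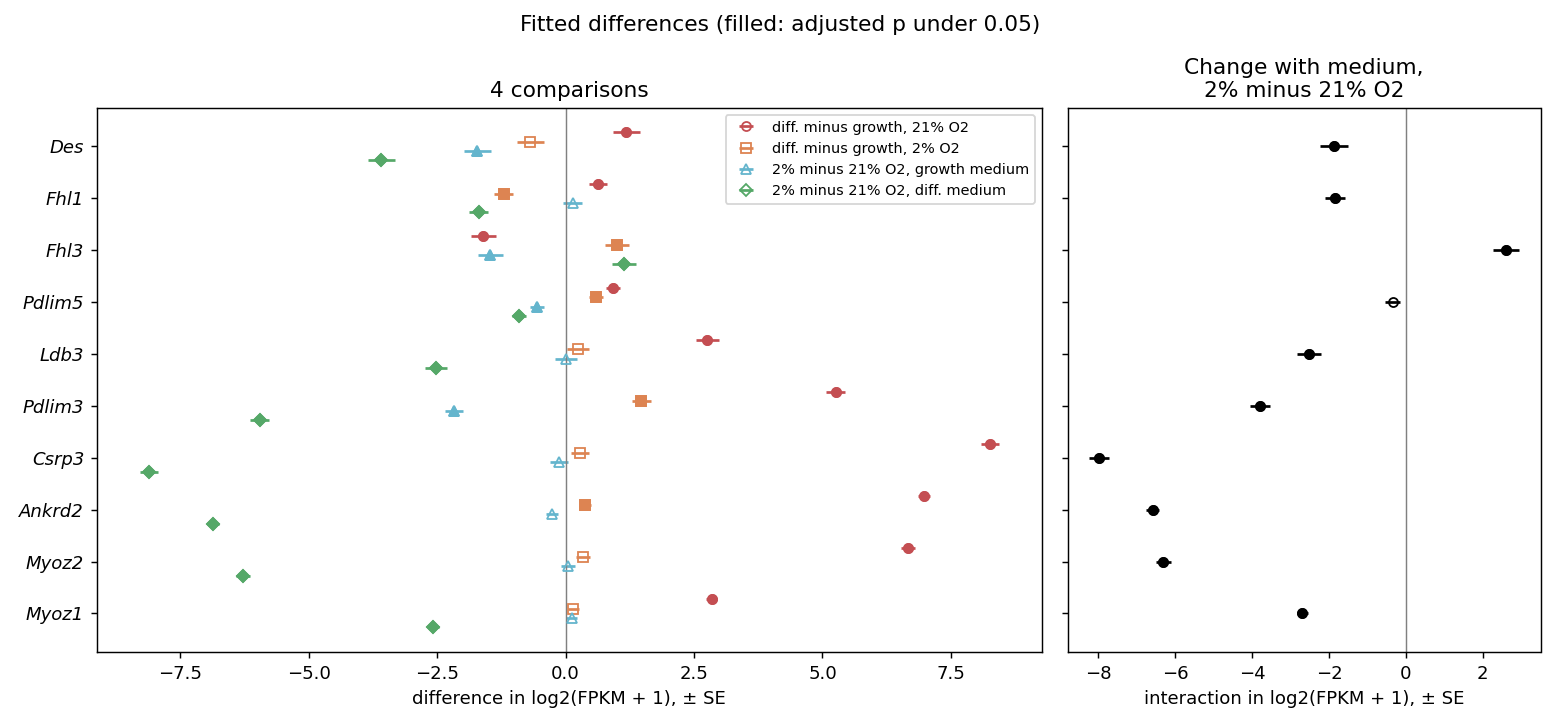
Fitted differences in log2(FPKM + 1) with standard errors for 4 comparisons (left) and for the interaction (right), filled where the adjusted p was under 0.05. Differentiation medium at 21% oxygen ranges from -1.60 (Fhl3) to 8.26 (Csrp3), while at 2% the fitted changes lie between -1.20 (Fhl1) and 1.47 (Pdlim3).

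The genes whose profile over the 8 libraries was most like each member's were ranked by Pearson's r of log2(FPKM + 1) among 7856 genes. These r values are descriptions, and for genes high in 1 group they rest mostly on that group's libraries. The nearest to Csrp3 were Lmod2 (r = 0.9996), R3hdml and Smpx (0.9994 each), and the nearest to Ankrd2 were Ppfia4, Trim72 and Rsad2 (0.9996 each). R3hdml was also among the nearest to Myoz2 (0.9993), after Reep6 (0.9994), and Timm8a1 was nearest to Myoz1 (0.9994). Between 136 and 173 genes reached r of 0.99 with Csrp3, Ankrd2, Myoz1 or Myoz2. The other members had fewer near neighbours: 36 for Pdlim3, 33 for Ldb3, 13 for Pdlim5, 7 for Des, 2 for Fhl3 and 0 for Fhl1.

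Myog, the myogenic regulator myogenin, was nearest to Pdlim3 (r = 0.9975). Its levels were 13.3 and 8.83 FPKM in growth medium and 2576 and 2642 in differentiation medium at 21% oxygen, and 0.342 and 0.442 and then 4.49 and 2.14 at 2%. Both genes were lowest in growth medium at 2% oxygen and lower in differentiation medium at 2% than in growth medium at 21%. Tpm2, beta-tropomyosin, was nearest to Ldb3 (r = 0.9982), and Arhgap24 to Des (0.9985). Fhl3 was most like Atox1, a copper chaperone (r = 0.9937), and Gpx1, glutathione peroxidase (0.9908). Gpx1 measured 275 and 212 FPKM in growth medium and 68.5 and 62.9 in differentiation medium at 21%, and 74.4 and 75.1 and then 133 and 230 at 2%, which is the high, low, low, high order of Fhl3. Among the members themselves r ran from 0.994 to 0.999 within Csrp3, Ankrd2, Myoz1 and Myoz2. For Fhl3 it was negative with each other member, from -0.592 with Myoz1 to -0.169 with Des.

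Of 24 other Z-disc and actin-anchoring genes, 21 were tested, and 16 rose and 4 fell with differentiation medium at 21% oxygen. The tested genes leave out Nebl, Xirp2 and Myoz3, and 8 of them passed the filter only through normoxic differentiation medium. The median log2 change of 2.81 was that of Myot, which was listed at 0 in growth medium, so it depends on the added 1. For all tested genes the median was -0.20, with 25.5% higher and 41.0% lower. The largest rises were in Neb (nebulin, 5.97 ± 0.12, adjusted p 2.11e-07), Xirp1 (5.66 ± 0.13, adjusted p 3.03e-07) and Ankrd1 (5.52 ± 0.36, adjusted p 2.53e-05). Neb and Xirp1 are among the 8 genes tested only through normoxic differentiation medium, so their rises were built into their being tested. Ankrd1, of the same ankyrin repeat family as Ankrd2, differed from it in its base: 46.5 and 49.2 FPKM in growth medium, and 2309 and 2159 in differentiation medium at 21%. The falls were in the actin capping genes Capzb (-1.17 ± 0.11) and Capza1 (-0.75 ± 0.09), in the formin Fhod3 (-0.88 ± 0.15) and, named after its values were seen, in the co-chaperone Bag3 (-0.45 ± 0.10, adjusted p 0.00710), a call lost with median-of-ratios scaling (-0.18, adjusted p 0.126).

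At 2% oxygen 5 of the 21 rose with differentiation medium (Cryab, Bag3, Capza1 and, named after their values were seen, Capza2 and Actn3) and 2 fell (Fhod3 and Flnc), with a median of 0.07. All tested genes had the same median and 23.3% higher and 17.6% lower, so the number higher is near the background. Cryab, the small heat shock protein that binds desmin, rose most (2.29 ± 0.30, adjusted p 0.00202), from 39.8 and 38.5 to 137 and 278 FPKM. In growth medium 7 fell and 0 rose with 2% oxygen by limma (8 and 0 at an unadjusted p under 0.05). Of all tested genes 28.0% fell and 13.5% rose, so the number lower is near the background. Actn3 (alpha-actinin-3) fell most (-3.28 ± 0.19, adjusted p 7.93e-05), from 27.7 and 23.8 FPKM to 1.95 and 1.57. The count was 11, of which 10 fell, with only the libraries compared and 4 without replicate B of hypoxic growth medium. In differentiation medium 16 fell with 2% oxygen and Capza1, Capzb and Bag3 rose (median -3.60). All tested genes had 27.7% lower, 37.5% higher and a median of 0.15. The interaction was negative for 15 and positive for the same 3 genes (median -2.74). For all tested genes it was negative for 18.7% and positive for 35.4%, with a median of 0.27. The 8 genes that passed the filter only through normoxic differentiation medium enter these counts.

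Genes for 30 other LIM-domain proteins, 29 of them tested (Fhl4 was not), were called in both directions. With differentiation medium at 21% oxygen 9 rose and 13 fell, with a median of -0.33. All tested genes had shares of 25.5% higher and 41.0% lower and a median of -0.20, so these counts are near the background. Csrp2, of the same family as Csrp3, had the largest fall (-3.65 ± 0.15, adjusted p 3.36e-06) and went from 315 and 270 FPKM to 21.7 and 22.8. Csrp1, chosen after its values were seen to complete that family, also fell (-2.20 ± 0.37, adjusted p 0.00174), so of these 3 genes Csrp3 alone rose. Tes (testin, -3.14 ± 0.08, adjusted p 3.85e-07) and Crip1 (-2.51 ± 0.14, adjusted p 1.42e-05) fell, and the actin-binding LIM gene Ablim3 (2.51 ± 0.12, adjusted p 6.57e-06) rose. Ablim3 is among 3 of the 29 that passed the filter only through normoxic differentiation medium, so its rise was built into its being tested. Fhl2, the third Fhl gene tested and also chosen after its values were seen, did not pass (-0.29 ± 0.31, adjusted p 0.437).

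At 2% oxygen 4 of these LIM genes rose and 9 fell with differentiation medium (median -0.09). Of all tested genes 40.9% were called, 23.3% higher and 17.6% lower, so the number called is near the background. The largest rise was in Tes (0.89 ± 0.08, adjusted p 0.000544) and the largest fall in Pdlim4 (-1.92 ± 0.15, adjusted p 0.000389). Tes, like Fhl3, thus fell at 21% and rose at 2% oxygen, and its interaction was 4.03 ± 0.11 (adjusted p 2.05e-06). Hypoxia in growth medium raised 4 and lowered 10 (median -0.37), with Lims2 (2.54 ± 0.29, adjusted p 0.000849) and Lmcd1 (-2.37 ± 0.42, adjusted p 0.00519) at the ends. Of all tested genes 13.5% rose and 28.0% fell, so these counts are near the background. Hypoxia in differentiation medium raised 8 and lowered 10 (median -0.14). Of all tested genes 65.2% were called, 37.5% higher and 27.7% lower, so the number called is near the background. The interaction was positive for 10 and negative for 9 (median 0.16), against 35.4% positive and 18.7% negative of all tested genes. Without replicate B of hypoxic growth medium the numbers called fell from 13 to 6 with differentiation medium at 2%, from 14 to 6 with hypoxia in growth medium and from 19 to 12 for the interaction, and without its replicate A the first 2 fell to 5 and 8.

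**Figure D5:**
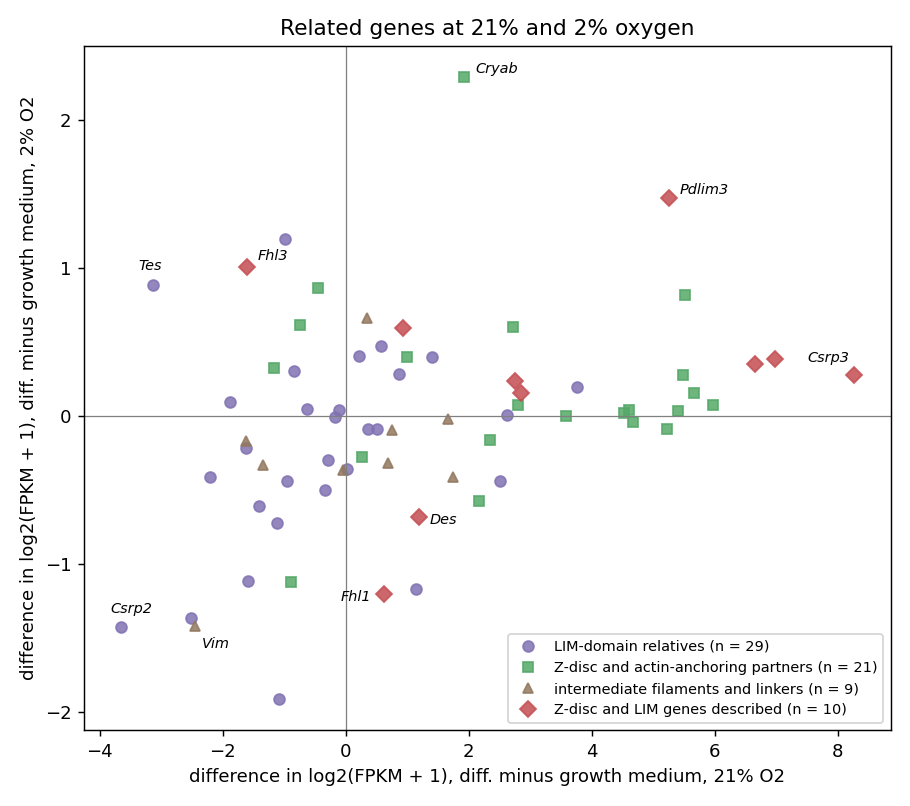
Change in log2(FPKM + 1) with differentiation medium at 21% oxygen (horizontal) and at 2% oxygen (vertical) for the 10 genes and 3 lists of related genes. Most Z-disc partners lie far to the right near 0 on the vertical axis, Fhl3 and Tes lie at the upper left, and Cryab has the largest vertical value, 2.29.

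Desmin can also be set against the other intermediate filament genes. Of 12 such genes and linkers, 9 were tested (Krt8, Krt18 and Dmd were not), and 4 rose and 3 fell with differentiation medium at 21% oxygen (median 0.35). All tested genes had shares of 25.5% higher and 41.0% lower and a median of -0.20. Vim (vimentin, the filament of myoblasts and other mesenchymal cells) measured 2358 and 2159 FPKM in growth medium at 21%, 442 and 386 in differentiation medium at 21%, 3757 and 3989 in growth medium at 2% and 1401 and 1486 in differentiation medium at 2%. It was highest in growth medium at 2% oxygen, where desmin was lower than in growth medium at 21%. Desmin measured lower still in differentiation medium at 2% (28.6 and 53.1 FPKM), a difference that missed the threshold. There Vim was below both growth medium groups. Vim fell with differentiation medium at 21% (-2.45 ± 0.12, adjusted p 6.38e-06) and at 2% (-1.42 ± 0.12, adjusted p 0.000464), and rose with hypoxia in growth medium (0.78 ± 0.12, adjusted p 0.00248). Nes (nestin, a filament partner of desmin in forming muscle) rose with differentiation medium at 21% (1.75 ± 0.30, adjusted p 0.00220) and fell with hypoxia in growth medium (-1.23 ± 0.30, adjusted p 0.0183) and in differentiation medium (-3.39 ± 0.30, adjusted p 0.000102), the directions of Des.

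In the remaining comparisons 1 of the 9 rose and 2 fell with differentiation medium at 2% oxygen (median -0.32), 2 rose and 3 fell with hypoxia in growth medium (median -0.31), and 3 rose and 4 fell with hypoxia in differentiation medium (median 0.11). The interaction was positive for 2 and negative for 5 (median -0.32). Of all tested genes, 23.3% rose and 17.6% fell with differentiation medium at 2% (median 0.07). With hypoxia 13.5% rose and 28.0% fell in growth medium (median -0.14), and 37.5% rose and 27.7% fell in differentiation medium (median 0.15). Their interaction was positive for 35.4% and negative for 18.7% (median 0.27). The counts for differentiation medium at 2% and for hypoxia in growth medium are thus near the background. The number called with differentiation medium at 2% was 1 with only the libraries compared or without replicate B of hypoxic growth medium, and 5 without replicate B of hypoxic differentiation medium. With hypoxia in growth medium it was 3 without replicate A of hypoxic growth medium.

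Several of these genes are also active in heart or smooth muscle, so markers of other cell types were read in the same libraries. The 8 cardiac marker genes summed to 5.22 to 15.9 FPKM over all libraries, with Nppa and Tbx5 at 0 in every group and Gata4 the highest in each. The 4 endothelial genes summed to at most 0.520 FPKM. The 6 adipocyte genes summed to 3.54 to 24.99 FPKM over all libraries, the most in growth medium at 21% oxygen. By group mean Pparg was the highest of them in hypoxic differentiation medium and Cebpa in the other groups. Plin1 and Lep were at 0 in every group, and Adipoq was above 0 only in hypoxic differentiation medium (0.126 and 0.133 FPKM). The 6 fibroblast genes summed to 461 to 1183 FPKM. The 6 smooth muscle genes, some of which myoblasts also use, summed to 277 to 355 FPKM in growth medium and 417 to 424 in differentiation medium at 21% oxygen, and to 156 to 159 and 130 to 320 at 2%.

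The 4 immune genes summed to 25.8 to 42.8 FPKM in hypoxic differentiation medium and 1.90 to 3.57 elsewhere. Nearly all of this was Cd68, a lysosomal protein gene also made outside immune cells, at 25.8 and 42.8 FPKM (log2 change with differentiation medium at 2% oxygen 3.03 ± 0.25, adjusted p 0.000497). Ptprc, the gene of the pan-leukocyte protein CD45, was at 0 in A and 0.0137 FPKM in B, and Cd3e was at 0.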

How the data were processed

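RNA-seq was made from total RNA with a stranded kit, per the labels' protocols. The deposited values, 1 column per library, were read as FPKM per gene. The table's own name says counts, but the values are not whole numbers, and FPKM was inferred from their low-value steps and from the quantifier named below. Reads were aligned with STAR 2.5.1b to mm9 and quantified with Cufflinks 2.2.1, per the submitters' processing notes, while the annotation, the options and the use of strand in counting are not given in the sources used here. Genes that overlap on opposite strands therefore cannot be told apart with certainty.

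From these values limma 3.58.1 (R 4.3.3) was fitted on log2(FPKM + 1) with an intensity trend over 8 libraries and 4 group means (4 residual and 2.61 prior degrees of freedom). Genes needed a mean of 1 FPKM in at least 1 group, which kept 12389 of the 17914 above 0. Tests are two-sided, with Benjamini-Hochberg adjustment over those genes at 0.05, and the code was tested on simulated data. Depth in fragments was recovered for 5 of the 10 genes from their low values, so precision is known for these and unknown for the others. The 10 genes and the lists were chosen with earlier results of these data known. Of each list, the called genes with the largest rise and fall (up to 3 each per comparison) could be named, and for each member the 3 genes of highest r, among genes with a mean of 10 FPKM in at least 1 group. Alternatives were a pseudocount of 0.1, no filter, 2 other scalings, only the libraries compared, the replicate letter as a block and leaving out each library. The 8 H3K27me3 and 8 input libraries were not analysed here.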

Additional observations from a re-analysis of the deposited data

Results flagged for a closer look

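The change with medium differed between 21% and 2% oxygen, by the limma interaction on log2(FPKM + 1), for 9 of the 10 genes, against 54.1% of all tested genes. Csrp3, Ankrd2, Myoz1 and Myoz2 were tested only through differentiation medium at 21% oxygen, so this count is a description. The interactions were -7.98 for Csrp3, -6.59 for Ankrd2, -6.31 for Myoz2, -3.78 for Pdlim3, -2.69 for Myoz1, -2.52 for Ldb3, -1.87 for Des, -1.83 for Fhl1 and 2.60 for Fhl3. For Pdlim3 part of this size comes from the added 1, since its means rose 46.8-fold at 21% and 26.9-fold at 2%. For Fhl1 and Fhl3 the change was past the threshold in opposite directions at the 2 oxygen levels. Groups of 2 libraries are too small to single out a library within a group.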

How the results depend on the processing

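Over the alternatives tried for the 10 genes and 5 comparisons, 657 of 690 values kept their side of the threshold, 22 lost a call, 11 gained one and none of the called values changed sign. The number of genes called with differentiation medium at 2% oxygen was 5, and it was 2 with only the libraries compared; leaving out each library in turn gave 2 to 6. For the other counts, leaving out each library gave 9 to 10 with differentiation medium at 21%, 3 to 5 with hypoxia in growth medium, 10 with hypoxia in differentiation medium and 9 to 10 for the interaction. The cause of these differences was not tested.

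With the replicate letter as a block the counts called were 10, 4, 4, 10 and 9, in the order differentiation at 21% and at 2%, hypoxia in growth and in differentiation medium, and interaction. Ankrd2 lost its call at 2% oxygen under the block (adjusted p 0.0511). Same-lettered libraries showed no shared deviation (r of the A minus B differences -0.166 to 0.042 over 12389 genes). With 1 such difference per group, this cannot tell whether a letter shared a culture or day. Ankrd2 passed with hypoxia in growth medium at a pseudocount of 0.1, with only the libraries compared and without either hypoxic differentiation library. For related gene lists, 11 of 207 counts moved by over 1.5 times. Genes under 1 FPKM rest on few fragments, so small differences among the low groups are not detectable at this depth.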
